A study of Capsicum annuum with 12 samples.

Results

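The H3K27me3 landscape of young pepper leaf was described from the 2 libraries immunoprecipitated for this histone mark, out of 12 samples in the series. The other samples are 2 libraries each of H3K4me3 and H3K9me2 and 6 inputs, of which 2 belong to H3K27me3. Every sample is young leaf of the pepper Capsicum annuum, cultivar cv. 59, with no treatment or altered genotype among the labels. In the labels the groups therefore differ by antibody and by input, since each library has its own input, and share tissue, cultivar and cross-linking. Any difference in preparation between the marks cannot be told apart from the antibody. Per the labels' protocols, 2 g of leaf powder was fixed with 1% formaldehyde for 10 min, and sheared chromatin was precipitated with a Millipore antibody against H3K27me3. Sequencing gave read pairs of 150 bp on an Illumina NovaSeq 6000. Whether each replicate was taken from its own plants is not in the labels, so the spread between replicates may be technical. The inputs entered through the authors' peak calling and were not analysed here by themselves.

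H3K27me3, trimethylation of lysine 27 of histone H3, is written by Polycomb repressive complex 2. It marks genes that a tissue keeps silent while other tissues or stages use them. In Arabidopsis, where it has been studied most, it covers many regulators of flowering and development in leaves, and it often spreads over a whole gene body rather than a short site. Leaf chromatin is a mixture of cell types, so mark in fewer cells and less mark per cell cannot be told apart in these values. No gene was assigned to any region, because the gene table at hand belongs to another assembly than the lists. The labelled tissue could therefore not be checked against marker genes.

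Replicate 1 had more H3K27me3 peaks than replicate 2, and both lists had the same shape of width and fold. On the 12 chromosomes, replicate 1 had 37284 peaks over 25.1 Mb and replicate 2 had 33098 peaks over 21.96 Mb. That is 0.817% and 0.716% of the 3066 Mb over which peaks of any mark were spread. The middle 50% of peaks were 291 to 811 bp wide in replicate 1 and 297 to 801 bp in replicate 2, so a single peak is far shorter than most genes. Their fold enrichment over local background, the authors' value for each peak, lay between 5.66 and 13.5 in replicate 1 and between 5.78 and 13.5 in replicate 2. Most peaks rested on few DNA fragments. The fragments over the summit of a peak, recovered from fold and p, had a median of 21 in replicate 1 and 20 in replicate 2, and 10% of peaks had 11 or fewer in each.

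Intervals covered by peaks of both replicates and at least 100 bp long are called shared regions, and 29068 of them were found. They held 18.5 Mb, or 0.603% of the chromosomes. Of the bases covered in replicate 1, 73.8% were shared, and of those in replicate 2, 84.2%. The limit of 100 bp removed little: 285 of 29353 intervals fell below it, with 16292 bases in all, and within 10 bp of it, 34 intervals stood just outside and 38 just inside.

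Shared regions were mostly short, and a minority of long ones held much of the marked sequence. The median width was 447 bp, the widest 10% began at 1287 bp, the widest 1% at 2827 bp, and the longest region had 10507 bp. Regions of at least 1 kb made up 16.5% of all regions (4802) but 42.3% of shared bases. At 2 kb or more stood 929 regions with 13.9% of the bases, at 5 kb or more 33 regions, and at 10 kb or more 1 region. Wider regions also had the higher fold. Median fold was 5.96 in replicate 1 and 6.11 in replicate 2 for regions of 100 to 199 bp, 18.3 and 17.1 for those of 1 to 2 kb, and 39.7 and 35.4 for those of 5 kb or more. Across the 29068 regions the rank correlation of width and fold was 0.555 in replicate 1 and 0.575 in replicate 2. Width and fold of a region come from the same fragments, so this is a description of the lists and no more.

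Regions lay in groups, and the size given to an H3K27me3 domain depended strongly on how far apart regions may lie and still be joined. Joining regions within 1 kb of each other left 18476 domains with a median span of 713 bp, joining within 3 kb 13368 domains of 1340.5 bp, and joining within 10 kb 10885 domains of 1839 bp. Most of the joining took place over short distances: the 29068 regions made 13368 domains at 3 kb, and 5182 at 100 kb. At 3 kb the 2 lists taken alone gave 16686 domains of 1322 bp in replicate 1 and 15414 domains of 1266 bp in replicate 2. What a domain contains also shifted with the distance. Marked bases filled 90.3% of the joined span at 0.5 kb, 57.2% at 3 kb, 40.1% at 10 kb and 6.44% at 100 kb, so that beyond a few kb a domain is mainly the space between regions.

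**Figure D1:**
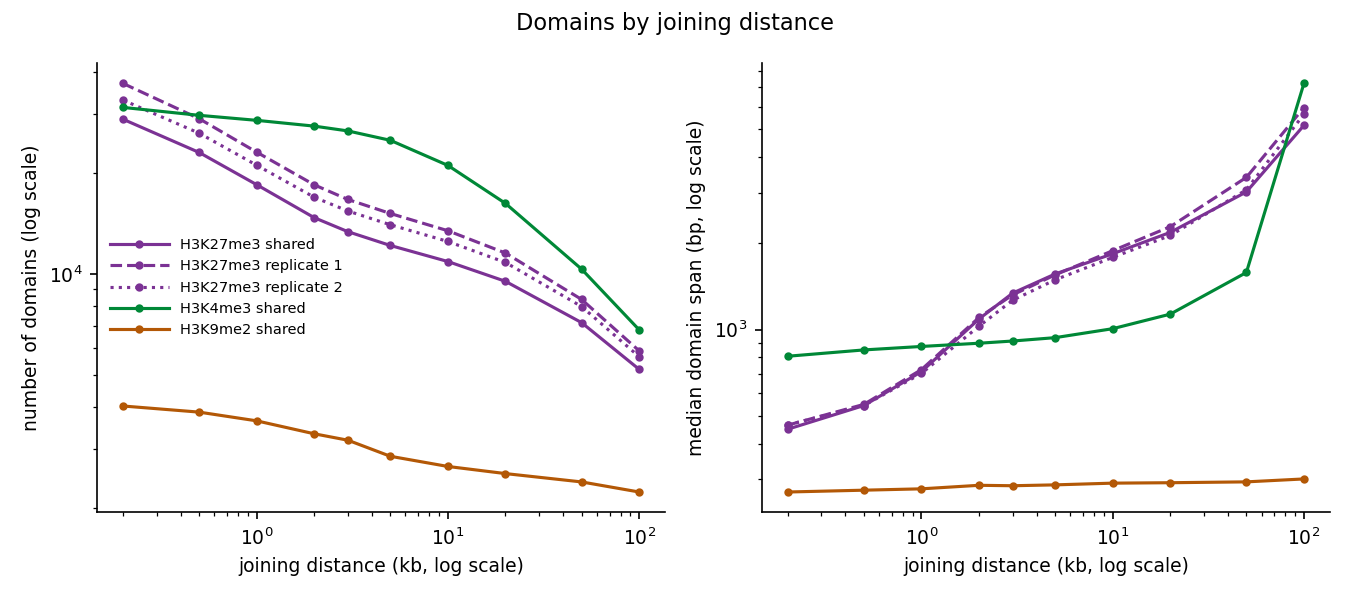
Number of domains (left) and median span of a domain in bp (right) against joining distance in kb, all axes log, for H3K27me3 shared regions and single replicates and for shared regions of H3K4me3 and H3K9me2; unjoined regions are not drawn. The H3K27me3 lines fall over the first 3 kb, with 13368 domains left at 3 kb against 26750 for H3K4me3.

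At 3 kb, single regions and groups were about equally frequent as domains, but groups held most of the mark. Of the 13368 domains, 48.9% (6535) were 1 region, and these held 20.6% of shared bases. Domains of 3 or more regions numbered 3669 and held 58.0% of the bases. Few domains were large by span: 386 reached 10 kb, with 14.8% of the bases, and 43 reached 20 kb. At 10 kb joining, 1268 domains reached a span of 10 kb and held 37.1% of the bases, so the share of H3K27me3 in large domains was set largely by the rule.

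The domain with the most H3K27me3 lay near the high end of chromosome 2. At 3 kb joining, the domain from 176233180 to 176325453 spanned 92.3 kb with 45 shared regions and 62.1 kb of shared bases, so that 67.3% of it was marked. Its regions had a median fold of 16.3 in replicate 1 and 16.7 in replicate 2, which is above the median of all shared regions, 10.4 and 9.63. The domain with the second most shared bases was its direct neighbour, from 176182329 to 176230151, with 23 regions and 29.3 kb of shared bases. At 10 kb joining both became 1 domain from 176169806 to 176348527, which spanned 178.7 kb and had 84 regions, 84 peaks in replicate 1 and 84 peaks in replicate 2. It held 104.2 kb of shared bases, against 37.9 kb in the domain that came next, on chromosome 4 from 4578624 to 4683970.

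The other large domains at 3 kb lay on chromosomes 3, 6 and 1. On chromosome 3, the domain from 286340721 to 286388186 had 24 regions in 47.5 kb and a median fold of 21.9 in replicate 1 and 16.8 in replicate 2. It lay 3.00 Mb from the end of the chromosome. On chromosome 6, the domain from 21243824 to 21279771 had 14 regions in 35.9 kb. This one stood out by evenness: its weakest region had a fold of 13.6 in replicate 1 and 10.6 in replicate 2. On chromosome 1, the domain from 328629153 to 328660520 had 19 regions in 31.4 kb. The 5 domains with the longest span were the same but for the last, where chromosome 3 from 286715018 to 286750609, 35.6 kb with 23 regions, was 37.9% marked.

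At 10 kb joining the longest spans were less densely marked. The domain on chromosome 9 from 5860058 to 6002757 spanned 142.7 kb, of which 25.1% was marked, with a median fold of 8.25 in replicate 1 and 8.07 in replicate 2. Chromosome 3 from 286770399 to 286882783 spanned 112.4 kb and had 30.3 kb of shared bases, and chromosome 12 from 245459874 to 245549714 spanned 89.8 kb and was 26.1% marked. These are therefore loose groups of shared regions. Whether mark below the calling limit lies between the regions was not tested. The remaining domains with many shared bases were chromosome 3 from 33024240 to 33104684, with 36 regions, and chromosome 1 from 442 to 80920, with 35 regions. The domain on chromosome 1 begins with the first bases of the chromosome, and its median fold of 7.00 in replicate 1 and 6.79 in replicate 2 was below that of all shared regions.

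Gaps between regions ran over a very wide range, and most were short. The median gap between a shared region and the next was 2090 bp, but the mean was 104.8 kb, 50.1 times the median. Of the 29056 gaps, 36.5% were at most 1 kb, 54.0% at most 3 kb and 62.6% at most 10 kb. Since the gap classes differ in width, their shares are given per 10-fold step of distance. These were highest at 0.2 to 0.5 kb (51.2%) and 0.5 to 1 kb (52.5%), lower at 2 to 3 kb (26.5%) and 14.5% at 5 to 10 kb. A second, lower maximum of 21.9% stood at 30 to 100 kb. Both replicates had the same low and second maximum, with 15.1% in replicate 1 and 15.3% in replicate 2 at 5 to 10 kb and 22.1% and 23.0% at 30 to 100 kb.

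**Figure D2:**
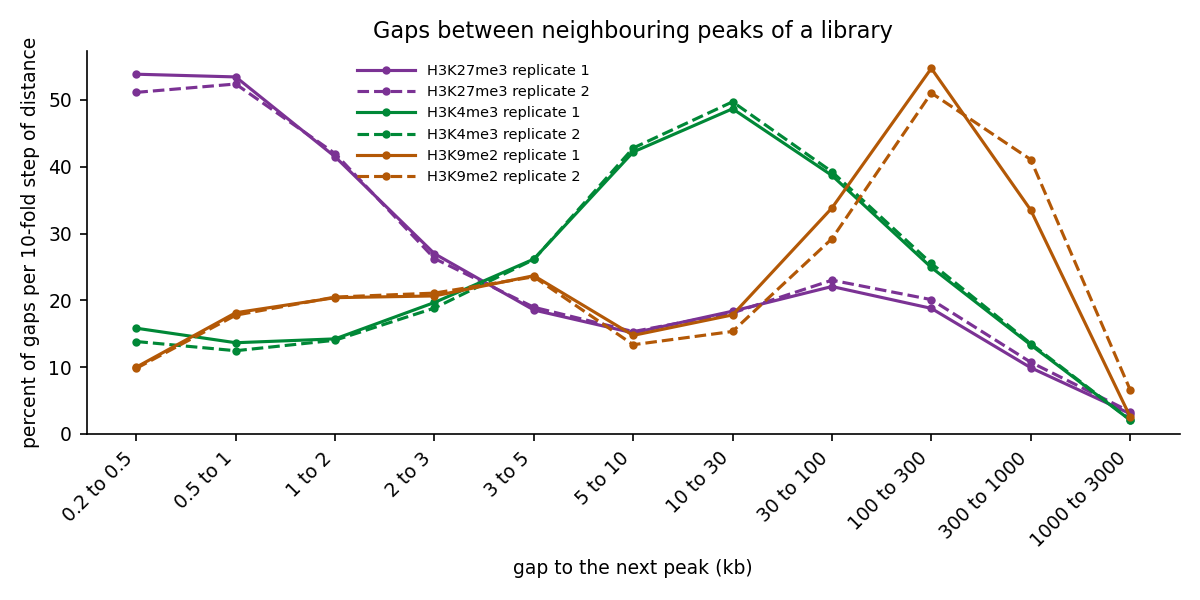
Percent of gaps between neighbouring peaks per 10-fold step of distance, by size class in kb from 0.2 to 3000 kb, for the 2 replicates of H3K27me3, H3K4me3 and H3K9me2. At 0.2 to 0.5 kb, where both H3K27me3 libraries are near their highest point, they have 53.9% and 51.1%, against 15.8% and 13.8% in H3K4me3 and 10.0% and 9.82% in H3K9me2.

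The shortest spacings touch the resolution of the lists. The smallest gap in a list was 196 bp in replicate 1 and 200 bp in replicate 2, close to the smallest peak widths of 195 and 199 bp. Among the 6000 gaps of at most 0.5 kb between shared regions, a single peak of replicate 1 ran across 27.1% and a single peak of replicate 2 across 16.4%. A split in 1 replicate was thus a continuous peak in the other for 43.5% of these gaps. At 0.5 to 1 kb this held for 3.44%, and at 1 to 3 kb for 0.0783%, so few of the larger gaps were crossed by a single peak. Peaks of a single list still covered part of them. At 0.5 to 1 kb they covered 17.5% of gap bases in replicate 1 and 9.24% in replicate 2. At 1 to 3 kb these shares were 11.0% and 5.41%.

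Most regions had a close neighbour on 1 side or both. Within 3 kb, 30.5% of regions had a neighbour on both sides, 47.0% on 1 side and 22.5% on neither. After a gap of at most 3 kb the next gap was again at most 3 kb in 56.5% of cases, against 51.1% after a longer gap. The nearest other region lay at a median of 754.5 bp. A small set was solitary, with 1529 regions (5.26%) more than 100 kb from any other and the farthest at 6.11 Mb.

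Fold was higher in larger groups and, within groups, away from the edge. Regions alone in a 3 kb domain had a median fold of 8.56 in replicate 1 and 8.18 in replicate 2 and a median width of 408 bp. Regions in domains of 10 or more had 13.6 and 11.998 and a width of 520 bp, and the classes between stood in order. In domains of 5 or more regions, those inside had median folds of 13.3 in replicate 1 and 11.6 in replicate 2, and the first and last of each domain had 10.5 and 9.63. Median widths were 493 bp inside and 458 bp at the edge. Since fold is higher in wider regions too, the part of width in this order was not tested.

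Neighbouring regions resembled each other only over short distances. The rank correlation of fold between a region and the next was 0.428 in replicate 1 and 0.329 in replicate 2 for the 6000 pairs at most 0.5 kb apart. It was 0.206 and 0.143 at 0.5 to 1 kb, 0.115 and 0.106 at 1 to 3 kb, and 0.00901 and 0.0177 beyond 100 kb. Widths of neighbours showed almost no such relation, with a correlation of 0.0621 in the closest pairs. Part of the closest value is built in, because 2 regions under a single peak of a list both take the fold of that peak. This was so for 27.1% of the closest pairs in replicate 1 and 16.4% in replicate 2. At 0.5 to 1 kb it was so for 2.57% and 0.871%. Neighbours also share a library and local background, so these correlations are given with no test.

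The 5 shared regions of highest mean fold all stood in groups of regions at 3 kb joining, and 3 of the 5 longest stood alone. Of all shared regions, 22.5% stood alone. Of the 33 regions of 5 kb or more, 78.8% stood in groups, so the 5 longest do not stand for long regions as a class. On chromosome 7 from 263519488 to 263521531 the fold was 192.0 in replicate 1 and 96.7 in replicate 2, in a domain of 9 regions. On chromosome 3 from 259932845 to 259937815 it was 174.9 and 111.2, and on the same chromosome from 21062999 to 21063665 it was 191.1 and 87.7. The replicates thus differed by up to 2.18 times at such summits. Chromosome 10 from 229414136 to 229415546 had 108.7 and 166.5, the opposite order, and chromosome 3 from 24485750 to 24487547 had 123.5 and 136.6.

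The longest region, on chromosome 1 from 314501098 to 314511604, had 10507 bp with a fold of 35.0 in replicate 1 and 51.6 in replicate 2. It was 1 of 4 regions in its domain. On chromosome 4 from 55088723 to 55096381, 7659 bp had a fold of 72.2 and 80.9, and the nearest other region lay 215.9 kb away. Chromosome 7 from 85787700 to 85795188, with 7489 bp and a fold of 39.7 and 58.1, lay 448.0 kb from the next region, deep inside its chromosome at 85.8 Mb from the nearer end. Both of these isolated regions thus stayed single at every joining distance up to 100 kb. The others were chromosome 12 from 44594581 to 44602028, 7448 bp with its nearest region 57.4 kb away, and chromosome 2 from 178532357 to 178539655, 7299 bp at the very end of the chromosome with a lower fold of 11.9 and 17.2.

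Along the chromosomes, the outer parts together held more H3K27me3 than an even spread would give on all 12, at both ends on 10 of them and at the high end alone on chromosomes 2 and 8. The outer 15% of the span at each end held 66.7% ± 8.78 of a chromosome's shared bases (mean ± SD over 12 chromosomes), with 51.0% on chromosome 2 as the lowest and 77.3% on chromosome 3 as the highest. The replicates gave almost the same mean, 66.8% in replicate 1 and 66.7% in replicate 2, and replicate 2 was the higher on 6 of 12 chromosomes. Split into 20 equal segments of 5%, the densest segment was the first on 5 chromosomes, the last on 5, and within the outer 15% on the other two.

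**Figure D3:**
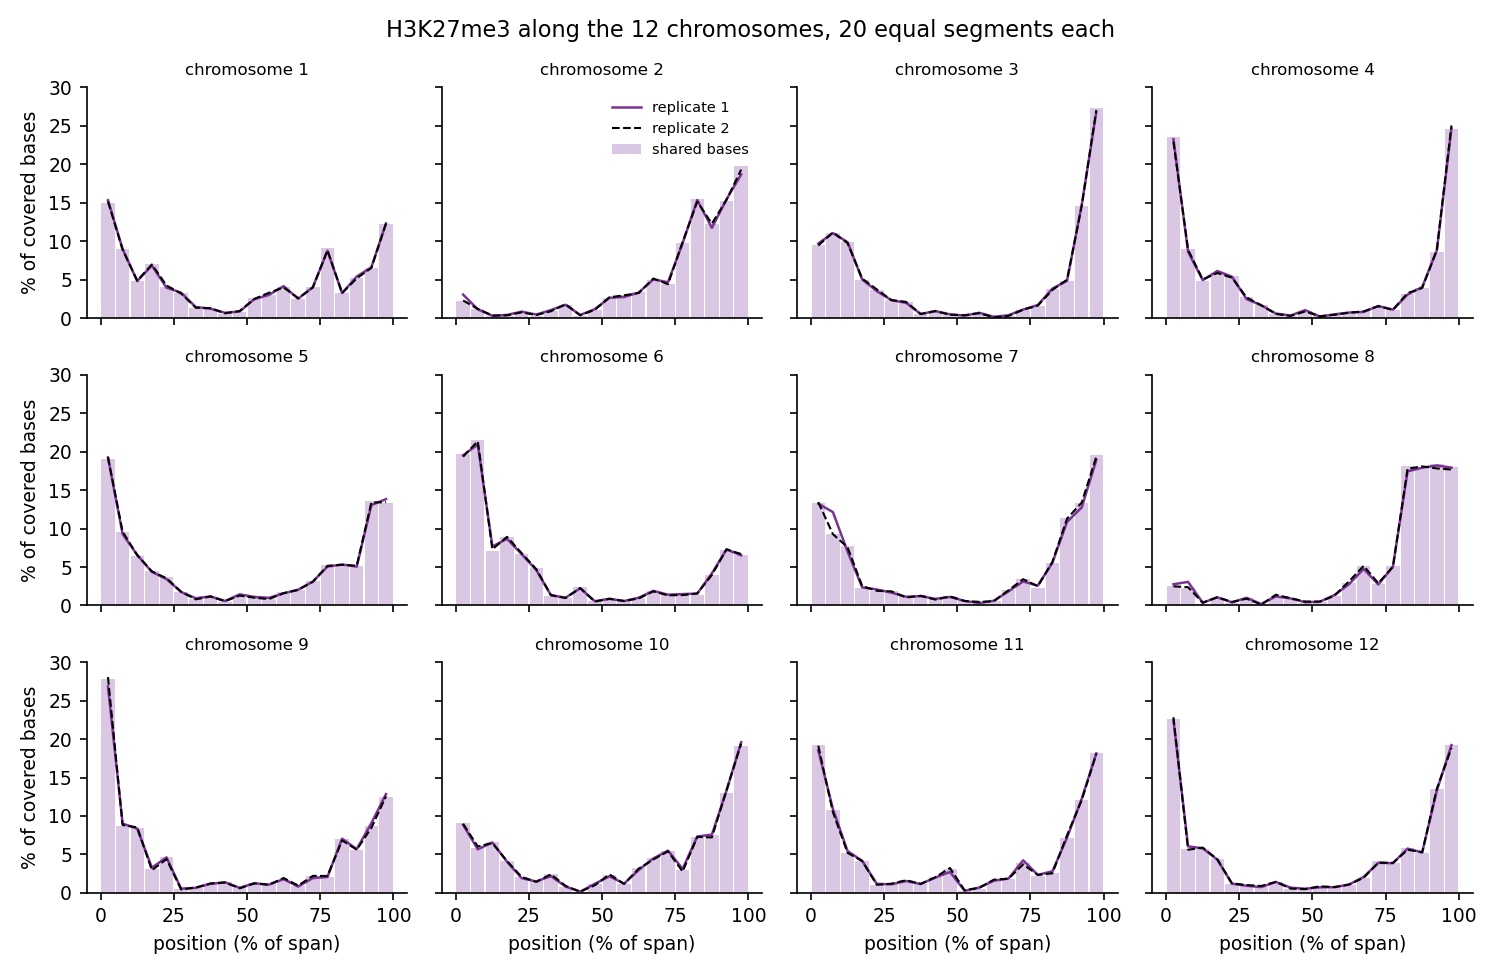
Percent of the covered bases of each chromosome in 20 equal segments along its span, with bars for shared bases and lines for each replicate. The lines of the replicates lie nearly on each other, chromosomes 2 and 8 have most of their mark toward the high end, and chromosome 6 toward the low end.

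With both ends of a chromosome summed, the mean amount was lower in almost every step inward. The outermost 5% at each end held a mean of 32.8% ± 8.37 of shared bases (SD, 12 chromosomes), the next 5% held 20.7% ± 3.98, and the following ones 13.1%, 10.8% and 6.84%. From the low ends of chromosomes 2 and 8 taken alone there was no such order. The central 10% of the chromosome, the innermost of these steps, held 2.11%, against 2.04% in the step just outside it. Of all regions, 66.8% lay in the outer 15% at each end, 22.5% at 15 to 30% and 10.7% in the middle 40%.

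The low and high ends were close on some chromosomes and far apart on others. On chromosome 8 the low end held 4.96% of shared bases and the high end 54.2%. Chromosome 2 showed the same side, with 3.75% at the low end and 47.3% at the high end. Chromosome 6 had the reverse, 48.3% at the low end and 17.7% at the high end. These were the 3 chromosomes on which 1 end held more than 2 times the other. On chromosomes 2 and 8 only 9.13% and 9.74% of shared bases lay in the first 50% of the span, the lowest of the 12. Closest to even was chromosome 4, with 37.3% at the low end and 37.1% at the high end. Ends also lay near each other on chromosome 1 (28.9% and 24.0%), chromosome 5 (35.1% and 32.0%), chromosome 11 (35.2% and 37.5%) and chromosome 12 (33.9% and 38.1%).

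Chromosomes differed in the amount of mark far more than in the size of its units. Shared bases came to 10.1 kb per Mb on chromosome 2, 8.92 on chromosome 3 and 7.32 on chromosome 1. They were lowest on chromosomes 9 (4.16 kb per Mb), 10 (4.32) and 11 (4.46). Chromosome 12 had 5.93, chromosome 8 had 5.53, and the other chromosomes lay between 4.52 and 6.65 kb per Mb. The median width of a shared region stayed between 431 bp on chromosome 9 and 470 bp on chromosome 2. Regions per domain at 3 kb lay between 1.97 on chromosome 10 and 2.42 on chromosome 3, and the share of gaps of at most 3 kb between 49.4% and 58.7% on the same chromosomes. Differences in density were thus mainly differences in how many regions a chromosome carried per Mb.

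The same held with distance from the end in Mb: density varied with position, while width and fold hardly did. Shared bases were 26.1 kb per Mb at 2 to 5 Mb from the nearer end, the densest class, 15.4 at 10 to 20 Mb, 3.93 at 40 to 80 Mb and 1.59 beyond 80 Mb. The outermost classes were below the peak, with 17.4 kb per Mb in the first Mb and 17.2 in the second. Median width lay between 439 and 474 bp in all 8 distance classes. Median fold beyond 80 Mb was 10.1 in replicate 1 and 9.51 in replicate 2, against 10.7 and 9.63 at 2 to 5 Mb. A region in the interior was therefore about as wide and as enriched as one at 2 to 5 Mb from an end. Of regions beyond 80 Mb, 72.5% still had another within 3 kb, against 82.8% at 2 to 5 Mb.

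**Figure D4:**
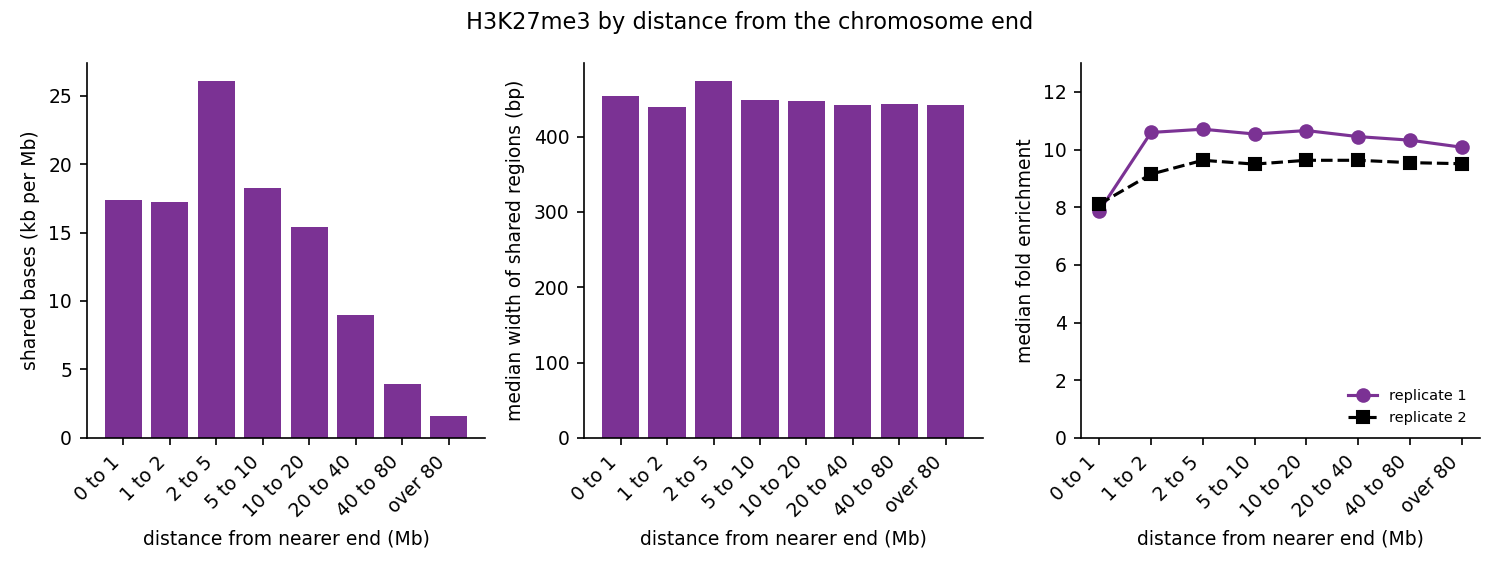
Shared bases in kb per Mb (left), median width of shared regions in bp (middle) and median fold enrichment in each replicate (right) by distance from the nearer chromosome end in Mb. Density is highest at 2 to 5 Mb (26.1 kb per Mb), width stays between 439 and 474 bp, and fold is lowest in the first Mb (7.87 and 8.11).

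The first Mb was the exception in fold, with medians of 7.87 in replicate 1 and 8.11 in replicate 2, and it held places of high local background. Of the 24 outermost stretches of 100 kb, 9 had no shared region and 8 had 9 or more, a limit chosen after the values were seen. These 8 held 130 of the 148 regions there: the low ends of chromosomes 1, 4, 7 and 11 and the high ends of chromosomes 3, 4, 7 and 8. The low end of chromosome 1 alone had 35 regions with 32.6 kb. In the 8 stretches the median background at a region lay between 3.77 and 6.01 fragments in replicate 1 and between 3.40 and 5.33 in replicate 2, against 1.60 and 1.46 over all shared regions. Median fold was 5.05 to 7.32 in replicate 1 and 6.13 to 7.92 in replicate 2, below the 10.4 and 9.63 of all shared regions. The stretch next below the limit, the high end of chromosome 2 with 7 regions, lay partly outside these ranges. Its median fold was 6.06 in replicate 1 and 17.2 in replicate 2, over backgrounds of 2.63 and 3.89. The part of local background in the calls at the ends was not tested. Chromosome ends are also partly set by the mark itself, because the last peak of any list stood for the end and on 8 of 12 chromosomes that peak was of H3K27me3.

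Long stretches of every chromosome had no shared region. Gaps of more than 1 Mb numbered 647 and took up 1368 Mb, or 44.6% of the span, and 112 were longer than 3 Mb. The longest was on chromosome 11 from 142024461 to 152478642, 10.5 Mb, and the next on chromosome 10 from 103068077 to 112813268, 9.75 Mb, and on chromosome 9 from 190964998 to 198975702, 8.01 Mb. Each replicate had peaks of its own in the first of these, since the longest gap of any single list was 8.92 Mb in replicate 1 and 7.77 Mb in replicate 2. On chromosomes 3 to 8 and 12 the longest such stretch lay between 6.42 Mb (chromosome 8) and 7.50 Mb (chromosome 7). Chromosome 1 had the second shortest, 4.80 Mb from 157685136 to 162487687, and chromosome 2 the shortest, 3.89 Mb from 24422642 to 28314973. On 11 of 12 chromosomes this stretch lay within 20 to 80% of the span, and on chromosome 2 it lay at 13.7 to 15.9%, in the sparse low part.

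The amount of mark per Mb was strongly uneven. Of 3074 bins of 1 Mb, 716 (23.3%) had no shared base, the median bin had 2.27 kb, and the richest 10% of bins held 49.3% of all shared bases. The 5 richest were chromosome 3 at 286 to 287 Mb with 125.3 kb in 184 regions, chromosome 2 at 176 to 177 Mb with 117.9 kb, chromosome 3 at 285 to 286 Mb with 90.1 kb, chromosome 4 at 4 to 5 Mb with 89.9 kb and chromosome 9 at 5 to 6 Mb with 83.5 kb. All 5 began or ended at most 5 Mb from a chromosome end, and 4 of the 5 overlap a domain named above. Rich bins lay near rich bins: the rank correlation of bins 1 Mb apart was 0.596 (mean over 12 chromosomes), at 10 Mb it was 0.464, and at 50 Mb 0.122. The replicates ranked the bins alike, with a Spearman correlation of 0.984 and a Pearson correlation of 0.994 over 3074 bins. Within single chromosomes the Spearman correlation was lowest on chromosome 8, at 0.967, and highest on chromosome 1, at 0.990. Bins of a genome share library and sequence, so this is no measure of spread between plants.

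At single peaks the replicates matched less closely, and the match depended on depth. A peak was counted as found again when a peak of the other list overlapped at least 50% of the shorter one. This held for 72.7% of peaks in replicate 1 (27107 of 37284, 95% Wilson interval 72.2 to 73.2%, counting error only) and for 84.0% in replicate 2 (27818 of 33098, 83.6 to 84.4%). The intervals treat peaks as independent. Single chromosomes ranged more widely, from 70.7 to 74.7% in replicate 1 and from 82.0 to 85.7% in replicate 2. With 7 to 9 fragments over the summit, 17.8% of replicate 1 and 34.4% of replicate 2 were found again. With 15 to 19 fragments it was 66.5% and 84.7%, and with 30 to 49 fragments 97.0% and 99.7%. At 100 fragments or more, 98.0% of replicate 1 and 1057 of 1057 peaks of replicate 2 were found again. Replicate 2 had the higher share in every class of fragments.

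**Figure D5:**
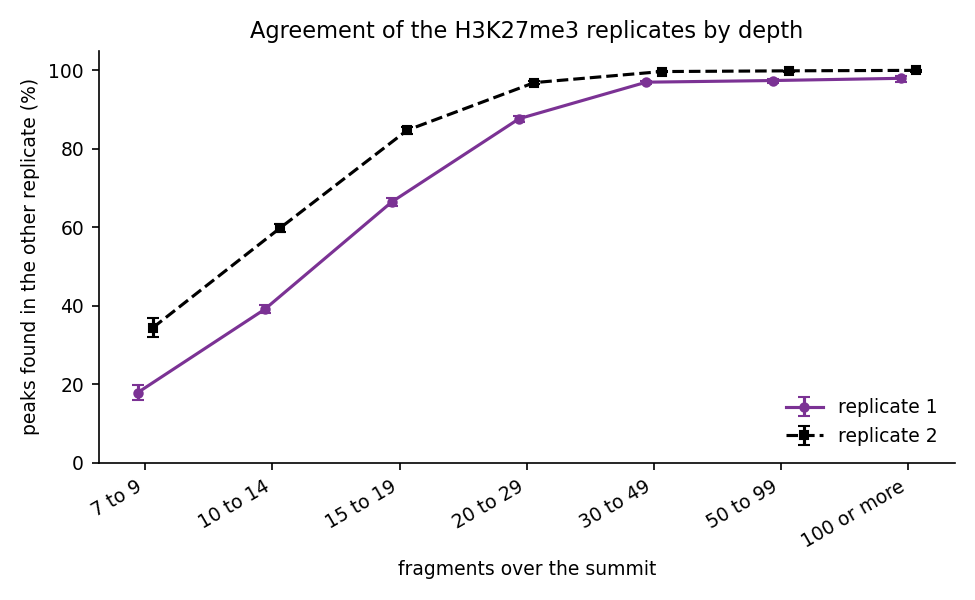
Percent of H3K27me3 peaks found again in the other replicate by number of fragments over the summit, with 95% Wilson intervals (counting error only, peaks taken as independent). Both lines are low at 7 to 9 fragments (17.8% and 34.4%) and nearly level from 30 fragments on (97.0% and 99.7% at 30 to 49).

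Wide peaks and peaks in groups were found again more often. Below 300 bp, 39.3% of replicate 1 and 61.3% of replicate 2 were found again, while at 2 kb or more it was 99.9% and 100%. With another peak of the same list within 1 kb the shares were 78.7% and 89.0%, and with none within 100 kb 54.3% and 66.8%. The order was also present within classes of like depth. Among peaks of 10 to 14 fragments, 44.1% and 65.6% of those with a neighbour within 3 kb were found again, against 27.7% and 46.9% of those without. At 20 to 29 fragments the same pairs were 88.6% and 97.6% against 83.8% and 94.1%. Position mattered little, with 71.6% and 82.1% in the middle 40% of chromosomes and 72.8% and 84.2% in the outer 15%.

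Peaks with no base in the other list were weak ones, apart from a few places of high background in replicate 1. They numbered 9747 in replicate 1 (26.1%) and 4851 in replicate 2 (14.7%). Their median fold was 5.50 in replicate 1 and 5.29 in replicate 2, against 10.2 and 9.61 for peaks found again, with 13 and 12 fragments against 26 and 23. Many lay close to mark found in both: 55.1% and 52.1% were within 3 kb of a shared region. Only 135 such peaks in replicate 1 and 4 in replicate 2 had 50 fragments or more. Of these, 127 and 4 stood where local background was over 5 times the lowest of the library.

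In replicate 1, 256 peaks without a base in replicate 2 were above this background limit, and most of them lay in 3 clusters. On chromosome 7 from 22062129 to 22756485, 87 peaks with no base in replicate 2 had a median background of 21.6 fragments and a median fold of 2.81, and replicate 2 had 10 peaks in the stretch. On chromosome 2 from 526745 to 690530 there were 38 such peaks, and on chromosome 8 from 10188756 to 10386284 there were 34. In the profiles the line of replicate 1 lies above that of replicate 2 at these 3 places, near the low ends of chromosomes 2, 7 and 8. The difference was clearest on chromosome 7, with 12.1% against 9.28% of covered bases in the segment. The lines also parted elsewhere, as in the first segment of chromosome 9, with 26.8% in replicate 1 and 28.1% in replicate 2. Peaks above the background limit were found again at 39.4% in replicate 1 and 77.5% in replicate 2, the others at 73.1% and 84.1%.

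Matched peaks agreed well in position and less well in size. Over 26205 pairs that each match 1 to 1, the starts lay a median of 45 bp apart, the ends 46 bp and the summits 37 bp, and 75.7% of summits were within 100 bp. The peak of replicate 1 was the wider in 61.6% of pairs, with median widths of 600 and 545 bp. Cutting was not always the same: 1710 peaks of replicate 1 (4.59%) covered 2 or more peaks of replicate 2, and 1069 of replicate 2 (3.23%) did so for replicate 1. The Jaccard index, bases in both over bases in either, was 0.649 without joining, 0.710 at 3 kb and 0.738 at 100 kb, where joined spans also count the unmarked bases between regions.

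The fold of a single region varied between the replicates. The log2 ratio of fold, replicate 2 over replicate 1, had a median of -0.09 and an SD of 0.58 over the matched pairs, with 69.7% within 1.5 times and 91.0% within 2 times of each other. The rank correlation of fold over 29068 shared regions was 0.706. Over the 26205 matched pairs it was 0.758 for fold and 0.796 for width. Of the 291 regions in the top 1% by fold of each replicate, 119 (40.9%) were the same regions, and of the 2907 in the top 10%, 1773 (61.0%).

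Some of the regions with the most unequal fold also had unequal background. Among regions with 50 fragments or more in both, the one with the highest excess in replicate 1 was on chromosome 8 from 151424296 to 151424903. Its fold was 96.8 in replicate 1 and 11.1 in replicate 2, over backgrounds of 1.41 and 8.27 fragments. The highest excess in replicate 2 was on chromosome 3 from 280997516 to 280998400, with a fold of 7.17 in replicate 1 and 30.8 in replicate 2 over backgrounds of 6.81 and 1.08. There the fragments themselves were close, 55 in replicate 1 and 63 in replicate 2. Background did not differ in this way everywhere: on chromosome 2 from 169886887 to 169888501 the fold was 23.4 in replicate 1 and 83.3 in replicate 2 with backgrounds of 1.18 and 1.08, and the summits had 50 and 172 fragments.

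Set against the other marks of the series, H3K27me3 was the most clustered in each of its libraries. At 3 kb joining, a domain had 2.23 peaks in replicate 1 and 2.15 in replicate 2 of H3K27me3, against 1.22 and 1.202 in H3K4me3 and 1.24 and 1.24 in H3K9me2. Gaps of at most 3 kb made up 55.3% and 53.4% of H3K27me3 gaps, against 18.2% and 16.8% for H3K4me3 and 19.2% and 19.1% for H3K9me2. The H3K27me3 libraries did not overlap with the others in either measure. The difference of means was 0.966 peaks per domain and 36.0 percentage points of gaps, each with an exact two-sided permutation p of 0.0667, the smallest that 2 against 4 libraries allow, and an adjusted p of 0.133 over 4 measures. With the same number of peaks from each library, ranked by q, the difference in peaks per domain was 0.526. The lists were called as narrow peaks, so a single enriched stretch may be cut into several. Of gaps of at most 0.5 kb between H3K27me3 shared regions, 43.5% were a continuous peak in a replicate. The part of such cuts in the difference between marks was not tested.

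The other pair of measures separated H3K27me3 from H3K9me2 by more than from H3K4me3. The median domain at 3 kb spanned 1322 and 1266 bp in H3K27me3, against 956 and 966 bp in H3K4me3 and 298 and 301 bp in H3K9me2. The distal share was 66.8% and 66.7% in H3K27me3, 62.3% and 62.2% in H3K4me3 and 36.8% and 39.1% in H3K9me2. The H3K9me2 lists were weak and overlapped little. They covered 6.42 and 5.03 Mb with median folds of 4.31 and 4.38, and shared only 1.27 Mb in 4026 regions. All values of single H3K9me2 lists thus rest largely on peaks absent from the other list. The differences from the mean of the others, 664 bp and 16.6 percentage points, had an exact two-sided permutation p of 0.133 and an adjusted p of 0.133. The order of spans rests on joining. Without it a shared H3K27me3 region had a median of 447 bp, against 807 bp for H3K4me3. With 1 kb joining the H3K27me3 spans were 725 and 703 bp, below the 902 and 913 bp of H3K4me3. They stayed above the 298 and 301 bp of H3K9me2. The difference from the mean of the other marks was then 110.5 bp (exact permutation p = 0.733). No measure passed the threshold of 0.05, which this number of libraries cannot reach.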

How the data were processed

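The deposited data are 6 peak lists, 1 per immunoprecipitated library. The submitters' processing notes name Trimmomatic 0.38, MACS2 2.2.7.1, BWA 0.7.17 and deepTools 3.3.0, with no settings, and the genome build is not named in the sources at hand. For every peak, the authors' lists hold the fold enrichment (a linear ratio to local background), the −log10 p-value, the −log10 q-value and a score. These values only described, ranked or filtered peaks of their own list. The lowest −log10 q was 2.01 in replicate 1 and 2.05 in replicate 2 of H3K27me3, near the 2 that a q of 0.01 gives. Positions are those of the lists, counted from 1, on the 12 sequences with the prefix Ca_59Chr.

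Read totals of the libraries are not in the labels. Fragments over a summit, n, were recovered by taking fold as n + 1 over background + 1 and p as a Poisson tail, and n was within 0.01 of a whole number for 100% of peaks. Overlapping or touching peaks were merged. A gap runs from the end of a region to the start of the next, and the span of a chromosome is the last peak end over the 6 lists. Medians, shares and rank correlations are descriptions, since regions, bins and chromosomes are not replicates. The only test was an exact two-sided permutation of the mark labels over 6 libraries (15 arrangements), with Benjamini-Hochberg adjustment over 4 measures.

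Regions named are the 5 of highest mean fold, the 5 longest, the 5 domains with most shared bases and the 5 of longest span at 3 and at 10 kb joining, the 5 richest bins of 1 Mb and the longest stretch without a region per chromosome, of which 5 are given with positions. Of the 5 highest and 5 lowest ratios of fold between replicates, 3 are described. Members, measures, alternatives and this rule were chosen with earlier results of these data known. The alternatives were −log10 q of at least 5 or 10, local background of at most 5 times the lowest, bases of either replicate, other minimum lengths, joining distances, gap limits, distal widths and overlap rules, equal peak numbers, a replicate block and leaving out either replicate. Values were computed in Python 3.11.15 (numpy 2.4.6, scipy 1.17.1) and plotted with matplotlib 3.10.9. The routines were tested on simulated peak lists.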

Additional observations from a re-analysis of the deposited data

Results flagged for a closer look

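The H3K27me3 lists also hold peaks on sequences other than the 12 chromosomes, which none of the values above use. Replicate 1 had 893 such peaks (2.34% of its list) on 14 sequences, and replicate 2 had 218 (0.654%) on 10 sequences. They were drawn out because they are signal outside the described chromosomes and because the share differs between the replicates. Their median fold was 3.15 in replicate 1 and 4.32 in replicate 2, below the medians of 8.23 and 8.41 on the chromosomes, while their median width was 360 and 350 bp. What these sequences are was not analysed here.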

How the results depend on the processing

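Of 110 alternatives, 31 moved a value beyond its limit. The limit was 1 SD between replicates (over chromosomes for the fold correlation), or 1.5 times for counts. Counts of 20853 to 41027 regions and 10217 to 18224 domains at 3 kb stayed within it. So did 18476 domains at 1 kb and 10885 at 10 kb joining. For the 36 alternatives of the marks only direction and side of the threshold were read. Only for these was a reversal defined, as a change of sign against the mean of the other marks, and 0 reversed the direction. The side of the threshold could not change, because the smallest possible p is above 0.05 in each. Against H3K4me3 alone the order of spans did reverse at 1 kb joining, with 725 and 703 bp in H3K27me3 and 902 and 913 bp in H3K4me3. A −log10 q of at least 10 gave 19192 shared regions, 15.1 Mb, a median width of 600 bp, a domain span of 1276 bp, 46.8% of gaps within 3 kb and a fold correlation of 0.656. At a −log10 q of at least 5, width was 487 bp and gaps 52.4%. Bases of either replicate gave 28.5 Mb, 472 bp, 55.6% of gaps and a distal share of 66.8%. Regions of at least 300 bp gave 598 bp, a span of 1239 bp, 46.1% of gaps and a correlation of 0.729, and those of at least 1 bp a width of 443 bp. The span was 713 bp at 1 kb and 1839 bp at 10 kb joining, and gaps within 1 and 10 kb were 36.5% and 62.6%. The distal share was 53.6% in the outer 10%, 84.3% in the outer 25% and 66.5% with the background limit. An overlap of 50% of both peaks left 64.5% found again. Leaving out 1 replicate gave 21.96 to 25.1 Mb, widths of 462 to 465 bp, spans of 1266 to 1322 bp and distal shares of 66.7 to 66.8%. By construction, fewer or single lists change the regions that enter. For the marks, peaks per domain differed by 0.484 at 1 kb joining. Same-numbered libraries did not deviate together in covered bases per segment (correlations of -0.0838, 0.00824 and 0.0484 over 240 segments). A common preparation need not shift these shares, so whether the numbers pair the libraries stays unknown. With the replicate block the differences were the same, 0.966, 36.0, 664 and 16.6, with an exact permutation p of 0.111 for the first pair and 0.222 for the second, where 0.111 is the smallest possible. Counts of 11 or fewer fragments at the weakest 10% of peaks limit what can be read from single weak peaks.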
